A study of Homo sapiens with 8 samples.

Results

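Gene expression after 2 Gy of ionizing radiation alone was compared with that of untreated cells in a human embryonic kidney (HEK) line, a widely used laboratory cell line. The 4 arrays of this comparison, of 8 in the series, were chosen by their titles: 1 irradiated and 1 untreated array on chip B, and the same on chip A. The chips form one oligonucleotide array set and carry different probes, 19700 each, so chip A is not a repeat of chip B, and every probe was measured on 1 array in each group. The differences below have no replicate check, error or p-value, and a fold threshold is a rule of size. Cells had been in culture for 24 h when treated, and were kept for another 4 h until RNA was made. Untreated cells received neither agent, and irradiated cells received 2 Gy without the ligand. The remaining 4 arrays, used here only for reference, came from cells given 50 µM of a DNA minor groove binding ligand, alone or 1 h before 2 Gy.

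Ionizing radiation breaks both strands of DNA, which activates the kinase ATM and, through it, the transcription factor p53. In many cells p53 then induces the cell cycle inhibitor CDKN1A, the ubiquitin ligase MDM2 and genes of apoptosis, and transcripts of mitosis fall as cells halt before division. HEK lines commonly carry adenoviral early genes whose products bind p53 and the retinoblastoma protein, so this branch of the response can be altered in them. Neither the files nor the reference used here pairs the probe IDs with genes. None of these genes, nor the markers of HEK cells, could be looked up, so the dose and the cell type were not checked against known transcripts and results are given per probe.

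The chip B arrays had like brightness, whereas the irradiated array of chip A was dim. On chip B the median spot intensity was 202 on the untreated and 213 on the irradiated array. The irradiated array covered a narrower range, with 5th and 95th percentiles of 97.0 and 617, against 80.3 and 688 on the untreated array. Its brightest spots were thus dimmer and its dimmest spots brighter before normalization: the 1st percentile was 68.5 against 54.5 and the 99th 1246 against 1530. On chip A the median was 219 on the untreated and 34.5 on the irradiated array, and the deposited irradiated-to-untreated ratio had a median of 0.161 with 5th and 95th percentiles of 0.0825 and 0.302. Only 14 of 19696 chip A probes were brighter on the irradiated array before normalization, against 12004 of 19699 on chip B. All values of the dim array were multiples of 0.5, and 912 distinct values occurred, against 14949 on the untreated array of that chip. One such step was 0.0208 log2 units at its median. Log2 intensities were therefore quantile-normalized within each chip, which gives the 4 arrays of a chip 1 common distribution.

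**Figure D1:**
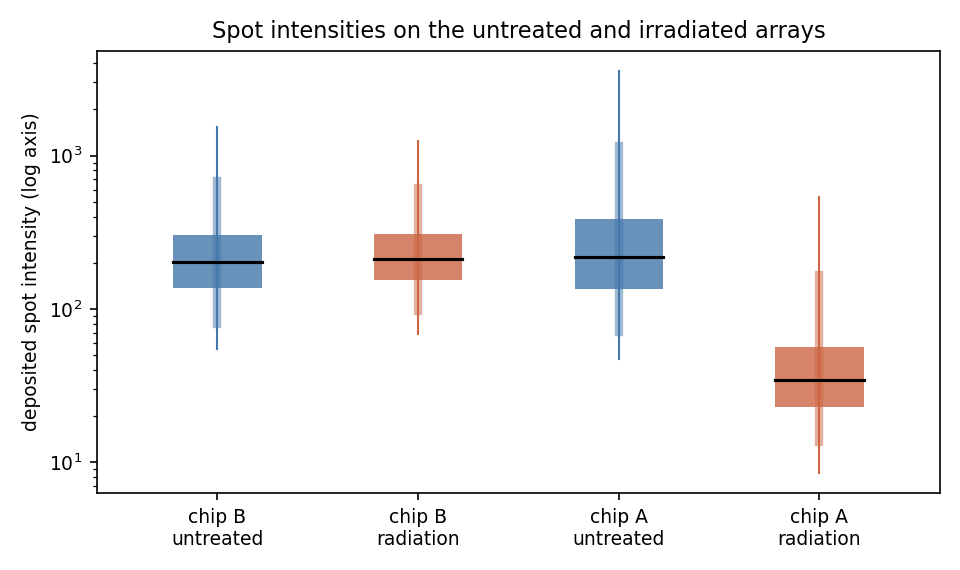
Deposited spot intensity (log axis) on the untreated and irradiated arrays of each chip; black lines are medians, boxes span the 25th to 75th, thick lines the 5th to 95th and thin lines the 1st to 99th percentiles. The chip B medians are 202 and 213, whereas the irradiated array of chip A has a median of 34.5 against 219.

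On chip B, most probes differed little between irradiated and untreated cells. The difference was irradiated minus untreated, on the normalized log2 scale, for the 19699 probes with a number on all 4 arrays. Its median was 0.01 with a standard deviation over probes of 0.32, and its 25th and 75th percentiles were -0.18 and 0.18. Of these probes 13312, or 67.6%, lay within 1.2-fold of no difference. At least 2-fold higher after 2 Gy were 112 probes, 0.569% of those measured, and 118 were at least 2-fold lower, 0.599%. The near balance is no firm direction, since median scaling gave 156 higher and 132 lower. At 4-fold or more 14 were higher and 7 lower, and at 8-fold or more 2 were higher and 4 lower. The 2-fold rule falls on a continuous slope: on the higher side 24 probes lay within 0.1 log2 units past it and 44 within 0.1 short of it. The lowest value inside was 1.002 and the highest outside 0.998.

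The probes that passed 2-fold on chip B were mostly dim ones. Probes were divided into 10 bins of brightness by their mean level on the ligand and combined arrays, which the difference does not use. The dimmest bin held 118 of the 230 probes past 2-fold, 51.3% (95% exact binomial interval 44.6% to 57.9%, which covers counting error only), of which 74 were higher and 44 lower. With a normexp correction and an offset of 50, which compresses differences between dim spots, it held 19.9%. The standard deviation of the difference was 0.50 log2 units there, 0.26 to 0.33 in the 8 bins between, and 0.35 in the brightest bin. In the 8 bins between, 26 probes were higher and 59 lower, at 0 to 8 higher and 6 to 10 lower per bin. The brightest bin held 12 higher and 15 lower. Under median scaling the dimmest bin held 118 higher and 20 lower probes and the brightest 2 and 52, so these balances depend on the scaling. For the 112 higher probes the median deposited intensity was 59.0 in untreated and 191 in irradiated cells, and 75 of them lay under the 5th percentile of the untreated array. For the 118 lower probes the medians were 235 and 103, and 56 lay under the 5th percentile of the irradiated array. The files give no background value and mark only few values as not detected, so such spots cannot be told from the floor. Neither the direction nor the size of their differences is thus firm.

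**Figure D2:**
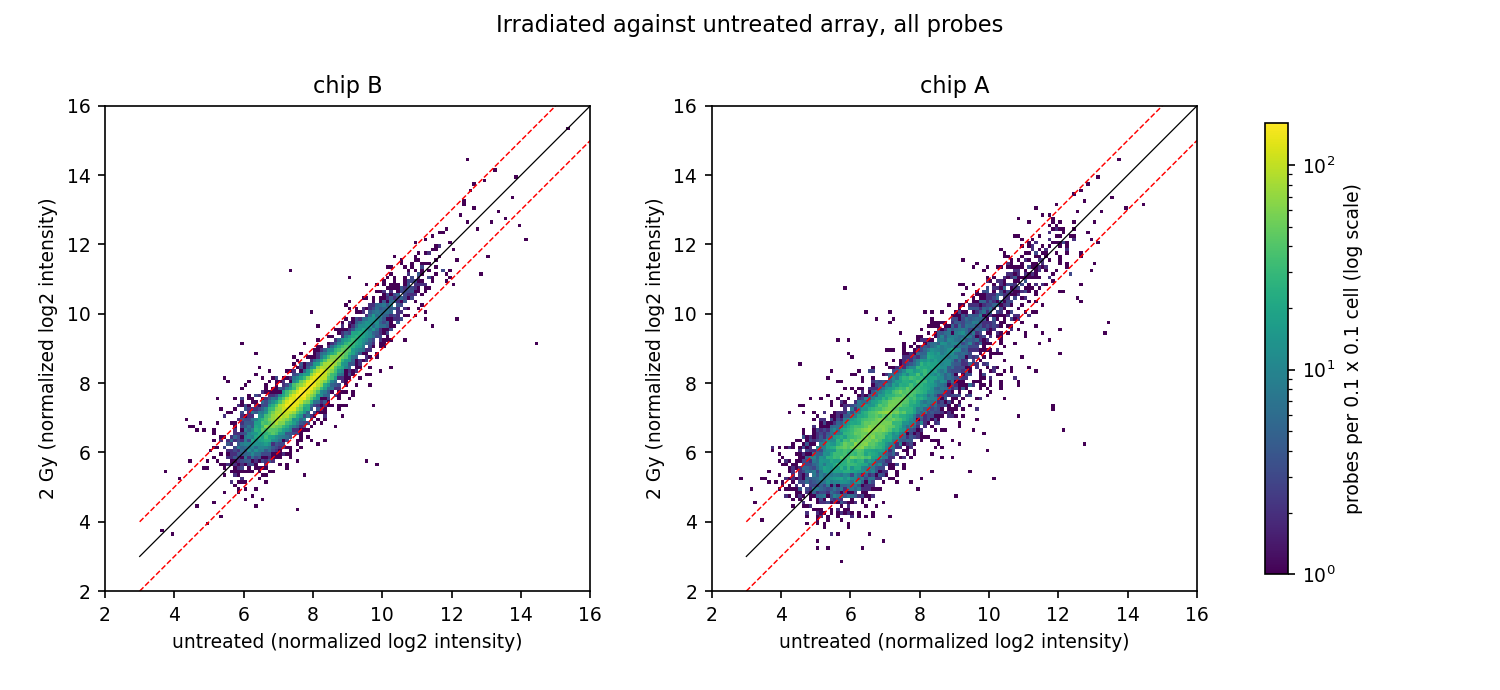
Normalized log2 intensity in irradiated (y axis) against untreated cells (x axis) for all probes of chip B and chip A; colour is the number of probes per cell (log scale), the black line is equality and the dashed lines are 2-fold. Chip B has 230 probes past the dashed lines and chip A 1551, with a wider cloud on chip A (standard deviation 0.60 against 0.32 log2 units).

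With dim spots left aside, lower probes outnumbered higher ones on chip B. Among the brighter 50% by the ligand and combined arrays, which the difference does not use, 22 of 9849 probes were higher by 2-fold or more and 40 lower. Of 13770 probes above the 25th percentile of both arrays, 23 were higher by 2-fold or more (0.167%) and 40 lower (0.290%). Their median differences were 1.17 and -1.31 log2 units. Lower probes also led under cyclic loess (22 higher, 39 lower) and normexp (38, 65). Median scaling gave 12 and 84, but it leaves the narrower range of the irradiated array in place. The percentile filter uses the arrays compared, so a difference can itself decide whether a probe stays. Among the probes above that percentile, the 2 highest and 2 lowest are given in full.

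The highest was obshum40K:B#42811, with a deposited intensity of 1999 in irradiated cells. It stood at 154 in untreated, 162 in ligand-treated and 152 in cells with the combined treatment. The irradiated array thus stood alone, with a normalized level of 11.24 against 7.15 to 7.38 on the other 3, and the difference from untreated cells was 3.86 log2 units, or 14.5-fold. On that array 99.7% of spots were dimmer, and on the untreated array 32.1%.

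The next was obshum40K:B#11660, at 918 in irradiated cells against 233.5 in untreated, 263 in ligand-treated and 175 in combined-treated cells. It was 2.10 log2 units higher than in untreated cells, and again the irradiated array was the one apart, at 10.02 against 7.37 to 8.04. Neither probe was higher in the second irradiated sample: the combined minus ligand difference was -0.20 for the first and -0.68 for obshum40K:B#11660.

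The lowest was obshum40K:B#13981, with a deposited intensity of 30396 in untreated cells, brighter than 99.99% of that array's spots. It was 547 after 2 Gy, 667 after the ligand and 745 after both. The normalized difference was -5.29 log2 units. Here the untreated array was the one apart, at 14.49 against 9.19 to 9.49, and the 3 treated samples lay close together.

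The second lowest, obshum40K:B#13739, had the same form. Its intensity was 888 in untreated cells, 170 after 2 Gy, 209 after the ligand and 189 after both, and its difference was -2.36 log2 units (5.15-fold lower). Both lower probes were thus also low in ligand-treated cells, which received no radiation.

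**Figure D3:**
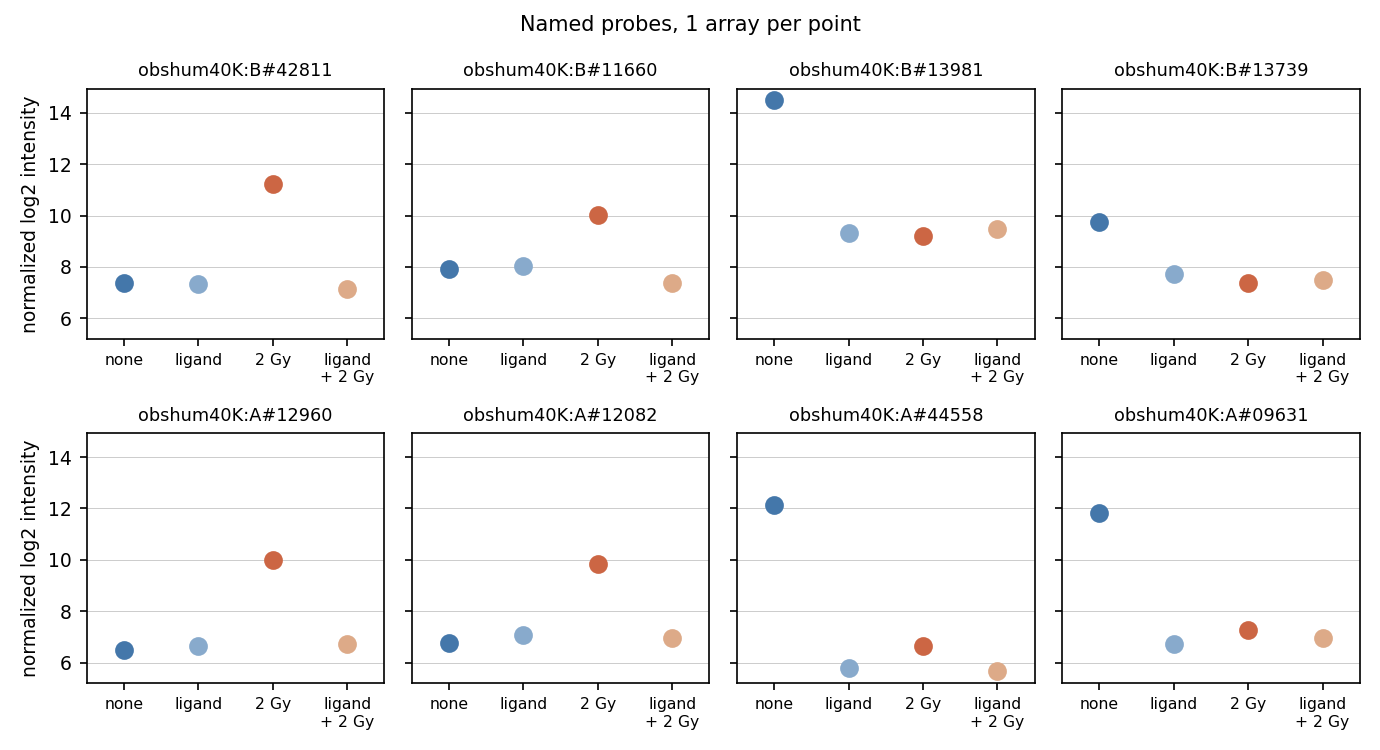
Normalized log2 intensity (y axis) of the 8 named probes under no treatment, ligand, 2 Gy and ligand with 2 Gy, 1 array per point; chip B is the upper row and chip A the lower. The higher probes are high on the irradiated array only (11.24 for obshum40K:B#42811 against 7.15 to 7.38), and the lower probes are high on the untreated array only (14.49 for obshum40K:B#13981 against 9.19 to 9.49).

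The same question, which of the 2 arrays departs from the rest, was put to all probes past 2-fold on chip B. Of the 112 higher probes, the irradiated array was at least 2-fold above each of the other 3 for 43, and the untreated array was as far below all of the others for 8, with 1 probe in both counts. Of the 118 lower probes, the irradiated array stood apart for 16 and the untreated array for 22, again with 1 in both. Higher probes thus came more often from the irradiated array and lower probes more often from the untreated array. This order at 2-fold held under median scaling, cyclic loess and normexp. With both spots above the 25th percentile, the irradiated array stood apart for only 6 of the 43 higher probes and the untreated array for 2 of the 8. In the lower probes these counts were 4 of the 16 and 14 of the 22. The order in the higher probes thus rests mostly on probes with a dim spot. At 1.5-fold the lower probes had the other order, with the irradiated array apart in 113 of them and the untreated array in 81. At 2-fold, neither array was that far from all others in the remaining 62 higher and 81 lower probes. These counts use the arrays that define the difference and are a description of it.

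On chip A differences were larger and more frequent than on chip B. Of 19696 probes, 637 were higher by 2-fold or more (3.23%) and 914 lower (4.64%), together 6.74 times as many as on chip B. With normexp 263 were higher and 509 lower. The standard deviation of the difference was 0.60 log2 units, 1.84 times that on chip B, and the 25th and 75th percentiles were -0.34 and 0.38. Only 7402 probes, or 37.6%, lay within 1.2-fold. At 8-fold or more 6 were higher and 17 lower. The irradiated array of chip A also correlated less with the other arrays (r = 0.867 to 0.899 across probes) than that of chip B (0.895 to 0.935), where probes of 1 chip share the same arrays and are not replicates. The combined array of chip A, of ordinary brightness, correlated with the other arrays at 0.867 to 0.894. The comparison of combined and ligand-treated cells, which does not use the dim array, also had more probes past 2-fold on chip A (1436 against 507) and a larger standard deviation (0.56 against 0.42 log2 units). Within the irradiated array of chip A, dimness and radiation cannot be told apart, and since the chips carry different probes, the gap between chips was not tested.

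The excess on chip A was spread over all levels of brightness. Unlike on chip B, the dimmest bin held 18.4% of the 1551 probes past 2-fold (95% exact binomial interval 16.5% to 20.5%, again for counting error only). Under median scaling it held 22.8% and with normexp 7.77%, both outside that interval. In the main setting 170 were higher and 116 lower there, an order that turned under cyclic loess (107 higher, 165 lower). In each of the 8 bins between, 5.49% to 9.29% of probes passed 2-fold, against 0.305% to 0.914% on chip B. In the brightest bin 46 probes were higher and 184 lower, and 44 to 49 higher and 163 to 213 lower under median scaling, cyclic loess and normexp. Of 13097 probes above the 25th percentile of both arrays, 226 were higher (1.73%) and 438 lower (3.34%). With such spots required, 34.0% of the chip A probes past 2-fold were higher, against 41.1% over all probes. The same shares on chip B were 36.5% and 48.7%.

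**Figure D4:**
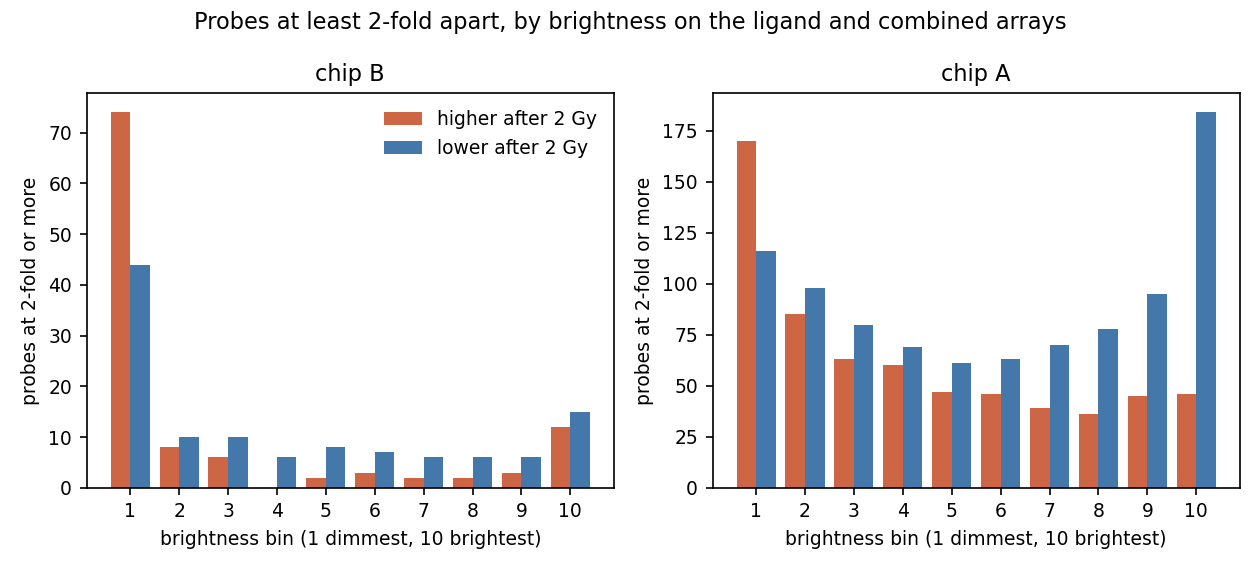
Number of probes at least 2-fold higher or lower after 2 Gy (y axis) in 10 bins of brightness on the ligand and combined arrays (x axis), for chip B and chip A on separate scales. On chip B the dimmest bin holds 74 higher and 44 lower probes of 230 in all, and on chip A the brightest bin holds 46 higher and 184 lower.

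The 2 highest probes of chip A above that percentile were obshum40K:A#12960 and obshum40K:A#12082. The first had a deposited intensity of 266.5 on the irradiated array against 161 in untreated, 136 in ligand-treated and 148 in combined-treated cells, so it was brighter even before the dim array was scaled. Its normalized difference was 3.53 log2 units. For obshum40K:A#12082 the intensities were 232 after 2 Gy, 199.5 in untreated cells, 190 after the ligand and 172 after both, and the difference was 3.04. In both the irradiated array was the one apart. On it 97.5% of the spots were dimmer than the first and 97.0% dimmer than obshum40K:A#12082, and on the other 3 arrays 34.0% to 43.2% and 45.2% to 55.7%.

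The 2 lowest were high on the untreated array alone. The probe obshum40K:A#44558 had an intensity of 7692 in untreated cells, against 29 after 2 Gy, 70.6 after the ligand and 75.4 after both. Its difference was -5.50 log2 units, and it was dim on the other 3 arrays, where 9.02% to 39.1% of spots were dimmer. The probe obshum40K:A#09631 had 6330 in untreated cells, 42.5 after 2 Gy, 146 after the ligand and 174 after both, with a difference of -4.59 log2 units. As on chip B, the leading lower probes were also low with the ligand alone.

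Over all chip A probes past 2-fold, the irradiated array departed more often than the untreated one in the lower probes under every scaling tried, and in the higher probes under all but cyclic loess. Of the 637 higher probes the irradiated array stood apart for 100 and the untreated array for 70 (55 and 68 under cyclic loess). Of the 914 lower probes the counts were 268 and 87. At 8-fold or more the order differed by direction: the irradiated array stood apart for 4 of 6 higher and 2 of 17 lower probes, and the untreated array for 1 and 6. At 2-fold with both spots above the 25th percentile, the irradiated array stood apart for 33 higher probes and the untreated array for 27. These counts were 16 and 26 under median scaling, 20 and 26 under cyclic loess, and 13 and 17 with normexp. The order in the higher probes is thus not firm. In the lower probes with such spots the irradiated array led under each of these settings, at 130 against 44 in the main one.

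The series holds 1 other measure of 2 Gy, the combined treatment set against the ligand alone. It shares no array with the comparison of irradiated and untreated cells, but is no replicate, since the ligand was present. Over all probes of chip B, 2.00% were higher in it by 2-fold or more and 0.579% lower. Of the 112 probes higher after radiation alone, 60 (53.6%) were also above 0 with the ligand, against 43.7% of all probes, and 67 of the 118 lower ones (56.8%) were below 0, against 56.3%. The medians of the second difference were 0.03 for the higher and -0.13 for the lower probes, against -0.05 over all probes, where those without the ligand were 1.26 and -1.27. Past 2-fold in the same direction were 6 of the 112 (5.36%) and 10 of the 118 (8.47%). Past 2-fold in the opposite direction were 9 (8.04%) and 7 (5.93%), also above the 0.579% and 2.00% of all probes. Among the 23 higher probes with both spots above the 25th percentile, 18 were above 0 with the ligand, 78.3% against 40.3% of all such probes, with a median of 0.09. That count was 8 of 12 under median scaling, 18 of 22 under cyclic loess and 29 of 38 with normexp. Among the 40 such lower probes 22 were below 0, 55.0% against 59.6%. Past 2-fold in the same direction were 2 of these 23 higher probes (8.70%) and 5 of the 40 lower ones (12.5%). The shares over all such probes were 1.57% and 0.240%. In the opposite direction 1 of each was past 2-fold, 4.35% and 2.50%, against 0.240% and 1.57%.

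On chip A the second measure was above 2-fold for 3.58% of all probes and below for 3.71%. Of the 637 higher probes 388 (60.9%) were above 0 with the ligand, against 50.6% of all probes, and 64 (10.05%) were at least 2-fold higher, with 21 (3.30%) at least 2-fold lower. Of the 914 lower probes 469 (51.3%) were below 0, against 49.4%. Of these, 45 (4.92%) were at least 2-fold lower and 48 (5.25%) were at least 2-fold higher. The medians of the second difference were 0.11 for higher and -0.01 for lower probes, against 0.01 over all.

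**Figure D5:**
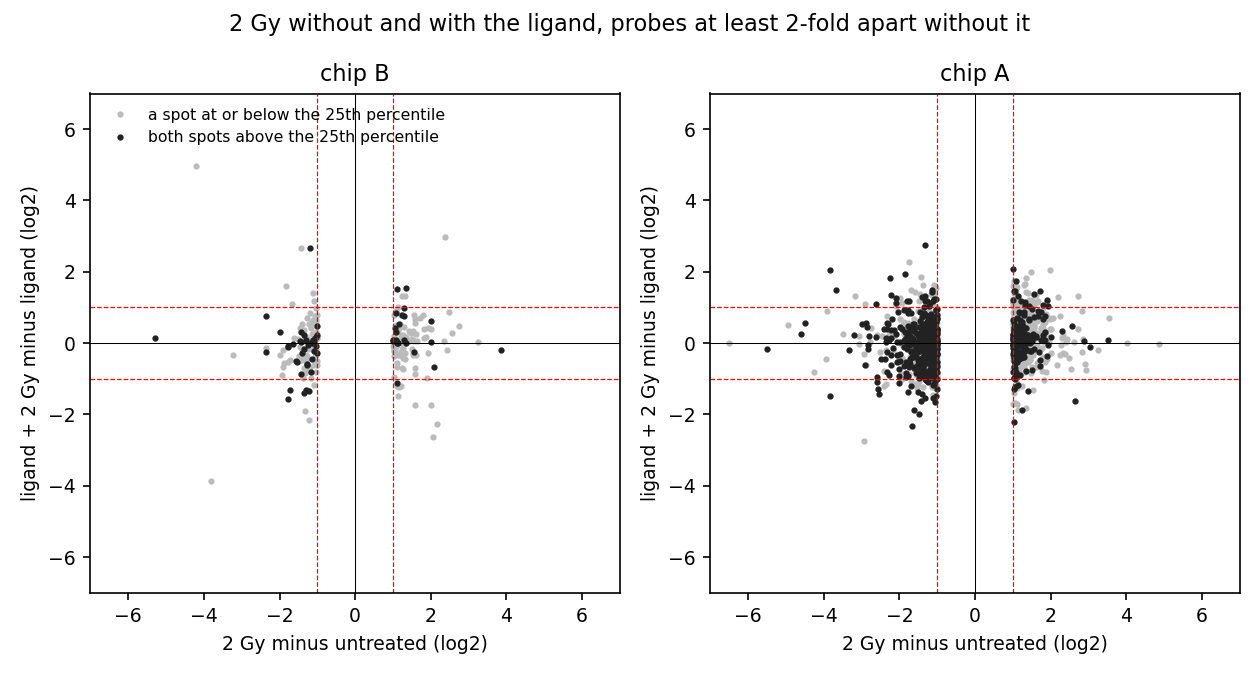
For each probe at least 2-fold apart after 2 Gy alone, the log2 difference without the ligand (x axis) and with it (y axis), on chip B and chip A; black points have both spots above the 25th percentile of the irradiated and untreated arrays, and dashed lines are 2-fold. On the y axis the points centre near 0, with medians of 0.03 for the higher and -0.13 for the lower probes of chip B.

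Few probes separated both irradiated samples from both unirradiated ones. Of 19699 probes on chip B, 3 were at least 2-fold higher on the irradiated and the combined array than on either of the other 2. In the same way 3 were at least 2-fold lower. In 1 of each 3 both spots of the radiation comparison were above the 25th percentile. The closest irradiated and unirradiated arrays were 1.101 to 2.36 log2 units apart in the higher and 1.05 to 3.66 in the lower probes. Of 19696 probes on chip A, 36 were higher in this way and 24 lower. Their median gaps were 1.08 and 1.13 log2 units, and 11 and 15 of them had both spots above that percentile. These are parts of the 637 and 914 probes past 2-fold, 5.65% and 2.63% of them, against 2.68% and 2.54% on chip B. At 1.5-fold in place of 2-fold, 35 probes of chip B were higher and 36 lower in this way, and 214 and 216 of chip A.

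Differences also varied slightly along the order of probe IDs. A running median of 51 probes ranged from -0.28 to 0.24 log2 units on chip B and from -0.46 to 0.55 on chip A. Its standard deviation was 0.070 and 0.149, and the differences of neighbouring probes correlated at only 0.034 and 0.041. How far such a median would range in probes of random order was not tested. The sources used here do not say whether this order follows the position of spots on the slide. The part of this variation in the differences above was not tested beyond its removal as an alternative setting.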

How the data were processed

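Total RNA of each sample (5 µg) was amplified with T7 RNA polymerase from an oligo(dT) primer and labelled with Cy3, so arrays have 1 colour, per the labels' protocols. The deposited intensity files hold 1 linear value per probe. The scanner, the image software and any background step are not stated in those protocols or headers. The text "not detected" replaced 0 to 3 values per array, and the 39395 probes with a number on each array of their chip entered the analysis. The deposited value tables hold a score per probe: log2 intensity in another centring and scale (r at least 0.999998), where 1 unit is 1.41-fold to 1.59-fold. Scores served as an alternative. Higher scores are brighter spots; column medians ran from -0.41 to 0.28, the radiation columns at 0.

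Intensities were log2-transformed and quantile-normalized within each chip (limma 3.58.1, R 4.3.3), with no background correction. Directions are irradiated minus untreated. The rule for named probes took, per chip, the 2 highest and 2 lowest among probes above the 25th percentile of both arrays. Gene lists planned for named probes were not evaluated. With so few arrays, precision is limited throughout, and the labels give no slide, date or batch. The calls of probes past 2-fold were tested on simulated arrays with equal noise for all probes, unlike the data, where the spread changed with brightness. Comparisons, settings and rules were chosen with earlier results of these data known. Alternatives were median scaling, cyclic loess, quantile normalization of the 2 arrays alone, normexp (offset 50), 3 filters on dim probes, removal of a running median and the deposited scores; a filter requiring both spots above the 25th percentile was added after seeing the data.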

Additional observations from a re-analysis of the deposited data

Results flagged for a closer look

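For 5 of the 8 named probes the radiation difference had opposite signs without and with the ligand. The named probes were picked for the size of the first difference. Over all probes past 2-fold, 55.2% on chip B and 55.3% on chip A had the same sign in both. On chip B 53.6% of the higher probes kept their sign, against 43.7% of all probes above 0. Of the lower ones 56.8% did, against 56.3% of all probes below 0. On chip A these shares were 60.9% against 50.6% and 51.3% against 49.4%. Each sign rests on 1 array per treatment, and the difference between the 2 comparisons was not tested. For obshum40K:B#42811 the differences were 3.86 and -0.20 log2 units, and for obshum40K:B#11660 they were 2.10 and -0.68. For obshum40K:B#13981 they were -5.29 and 0.15. On chip A they were 3.04 and -0.10 for obshum40K:A#12082, and -4.59 and 0.25 for obshum40K:A#09631. Apart from obshum40K:B#11660, the second value is small beside the first in each of these.

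The balance of higher and lower probes on chip B also lay on opposite sides of 50% in the 2 comparisons. Of the probes past 2-fold, 48.7% were higher after 2 Gy without the ligand and 77.5% with it. The first share passed 50% under other settings, at 54.2% under median scaling, 52.3% with the running median removed and 58.5% in the deposited scores, so its side of 50% is not firm. The difference between the comparisons was not tested either.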

How the results depend on the processing

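Of 98 comparisons of a main result with an alternative setting, 51 stayed close to the value reported, and no value of a named probe changed sign. No paired analysis was possible because each treatment has 1 array per chip, and for the same reason no replicate could be left out. Filters test fewer probes, and on chip B the share past 2-fold fell as well, from 1.17% to between 0.458% and 0.873%. On chip A it was 7.87% over all probes and between 5.07% and 8.29% under the filters, highest in the brightest 25%. On the brighter 50% of probes over 4 arrays, 68 were past 2-fold on chip B and 674 on chip A. Of the 68, 66.2% kept their direction with the ligand. The irradiated array stood apart for 11 and 178, and the untreated array for 17 and 80. On the brightest 25%, 43 and 408 were past 2-fold, 65.1% and 52.5% kept their direction, the irradiated array stood apart for 9 and 131 and the untreated array for 10 and 38. That set holds 4 of the 8 named probes. On the brighter 50% over the ligand and combined arrays, 62 and 702 were past 2-fold, 69.4% of the 62 kept their direction, the irradiated array stood apart for 9 and 194 and the untreated array for 13 and 69. That set holds 2 named probes. Requiring both spots above the 25th percentile, chosen after seeing the data, left 63 and 664, with 63.5% of the 63 keeping their direction, the irradiated array apart for 10 and 163 and the untreated array for 16 and 71. On chip B the irradiated array thus stood apart more often over all probes (59 against 30) and less often under each filter. The shares keeping their direction, here and below, pool higher and lower probes and have no share over all probes of each set beside them. With both spots above the 25th percentile, 78.3% of the higher probes of chip B kept it, against 40.3% of all such probes above 0. Of the lower ones 55.0% kept it, against 59.6% of all such probes below 0.

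The total past 2-fold stayed within 1.5 times under each rescaling of intensities except normexp on chip A. With normexp 772 probes of chip A were past 2-fold, with the irradiated array apart for 171, the untreated array for 87, and 7.77% in the dimmest bin, whereas on chip B that bin held 19.9%. Median scaling gave 22.8% in that bin of chip A and 59.8% keeping their direction with the ligand, and quantile normalization of the 2 arrays alone gave 20.6%. The latter leaves no common scale for all 4 arrays, so which array stood apart was not run. In the deposited scores, where 1 unit is less than 2-fold, 1517 probes of chip B and 4630 of chip A were past 1 unit. The irradiated array stood apart for 464 and 1256, the untreated array for 129 and 711, and 23.6% and 16.1% lay in the dimmest bin. On chip B the unit also differed between the arrays compared, at 1.41-fold on the irradiated and 1.57-fold on the untreated array. On chip A it was 1.57-fold on both. The causes of the shifts between settings were not tested. With no background value, dim spots limit every size given, and the directions of their differences are not firm either.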
